A study of Mus musculus with 12 samples.

Results

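The question here was which genes of C2C12 myoblasts responded to acetoacetate differently in growth medium and in differentiation medium. For each gene, the effect of acetoacetate (AA) over PBS was taken in each medium, and the effect in growth medium (GM) was subtracted from the effect in differentiation medium (DM). This difference of 2 effects, the interaction of AA and medium, uses all 12 of the series' 12 libraries in 1 model. Both media were used with PBS (groups GM-PBS and DM-PBS) and with AA (GM-AA and DM-AA), each treatment was given for 12 h, and a group held 3 libraries. C2C12 is an established clonal line of mouse myoblasts, so a group is 1 line in 1 condition. The labels do not give the dose or salt of AA, the composition of the media or how long the cells had been in DM. Whether replicate libraries stem from separate dishes is not stated either, so the p-values cover the spread between the libraries at hand, part or all of which may be technical.

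Myoblasts divide in growth medium. When mitogens are withdrawn in differentiation medium they leave the cell cycle, switch on myogenin and the sarcomere genes, and fuse into multinucleated myotubes. Leaving the cell cycle and building the contractile apparatus are normally coupled: the retinoblastoma family proteins silence the E2F targets needed for DNA replication, the DREAM complex silences the late genes of mitosis, and MyoD with its partners activates muscle genes. Acetoacetate is a ketone body made by the liver, which muscle takes up through monocarboxylate transporters and oxidises through acetoacetyl-CoA. It can also be turned into acetoacetyl-CoA in the cytosol for lipid synthesis.

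Reads assigned to genes came to 7959519 to 9893564 per library, with 14530 to 14798 genes detected. The test covered 12230 of 23446 genes. In a principal component analysis, medium lay along the first component (65.0% of the variance), treatment along the second (13.3%), and the third (3.81%) had all GM-PBS and DM-AA libraries above 0 and all GM-AA and DM-PBS libraries below it. Expression within a library also followed the GC content of transcripts. Spearman's rho between GC content and the deviation from a gene's mean was 0.00537 to 0.211 for PBS and -0.177 to -0.115 for AA in GM, and 0.127 to 0.150 for PBS and -0.148 to -0.0612 for AA in DM. The difference between the media had a rho of -0.0059 with GC content across 12144 genes, against -0.274 for the effect in GM and -0.266 in DM; this trend's part in the results was not tested beyond the fits without it. Myoblast markers (9 of 10 tested, among them Myod1, Myf5 and Des) summed to 2907 to 4172 CPM (counts scaled to library size by TMM). No endothelial marker was tested, and each sum covers tested markers only. The immune markers (2 of 8 tested) summed to 12.5 to 20.9 CPM and the epithelial ones (2 of 8 tested) to 40.6 to 98.6 CPM. Adipocyte markers (3 of 10 tested) summed to 35.1 to 58.7 CPM with Plin1, Lep and Retn at 0 reads. The osteoblast and chondrocyte markers (3 of 10 tested) summed to 1739.7 to 5309 CPM, nearly all of it from Spp1, with Ibsp at 0 reads. The strand of the reads is not given, and exons on the opposite strand cover 84.2% of Fen1, 35.3% of Hist1h2af, 28.3% of Gabarapl1, 23.4% of Ccnd1, 23.2% of Ctgf, 22.8% of Ube2c, 21.8% of Tgm2, 19.4% of Txnip, 17.4% of Ccne2, 15.5% of Ckm, 15.4% of Rad54l, 15.0% of Cebpd, 12.6% of Oxct1, 11.5% of Ch25h and 10.1% of Rgs16, so that their values are less certain.

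In all, 641 genes were past the test of the difference (5.24% of those tested), which means here a Benjamini-Hochberg adjusted p under 0.05 from edgeR's quasi-likelihood test. The effect of AA was higher in DM than in GM in 315 of them (2.58%) and lower in 326 (2.67%). Effects are given as log2 fold changes of AA over PBS ± SE, and the difference as DM minus GM on the same scale, from 3 libraries per group. Most differences were small: the median size among the 641 genes was 0.398, and 54 higher and 62 lower genes differed by at least 1.5-fold. A total of 35 genes differed by at least 2-fold, of which 20 stayed under 5 RPKM in each group. Over all tested genes the median difference was -0.0011, and 49.7% of the differences were positive.

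**Figure D1:**
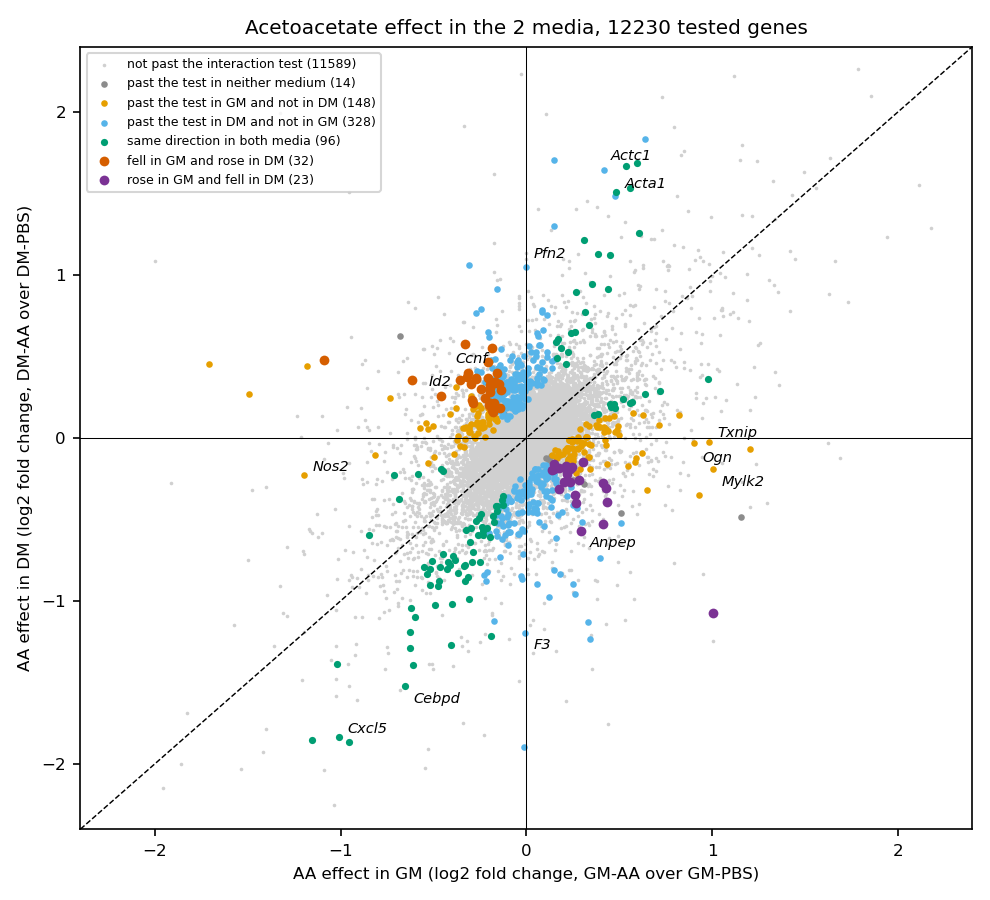
Effect of AA in GM (x axis) and in DM (y axis), as log2 fold changes of AA over PBS, for the tested genes; colours mark how each of the 641 genes past the test of the difference came to differ, and the dashed line marks equal effects. The 32 genes that fell in GM and rose in DM lie at the upper left, the 23 genes of the opposite kind at the lower right, and 9 genes lie outside the axes.

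The 641 genes came to differ in several ways. In 328 the effect was past the test in DM and not in GM (190 higher and 138 lower), and in 148 it was past the test in GM and not in DM (61 higher and 87 lower). Effects in the same direction in both media differed in size in 96 genes: 78 had the larger effect in DM (21 rising, 57 falling) and 18 in GM (12 rising, 6 falling). In 14 genes the effect was past the test in neither medium. The other 55 genes (0.45% of those tested) reversed sign, with both effects past the test: 32 fell in GM and rose in DM (0.262%), and 23 rose in GM and fell in DM (0.188%). The simple effects share libraries with the difference, so these classes describe it and are no separate evidence. For comparison, AA changed 2534 genes in GM (20.7%; 9.76% rose and 11% fell) and 3230 in DM (26.4%; 12.6% rose and 13.8% fell).

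**Figure D2:**
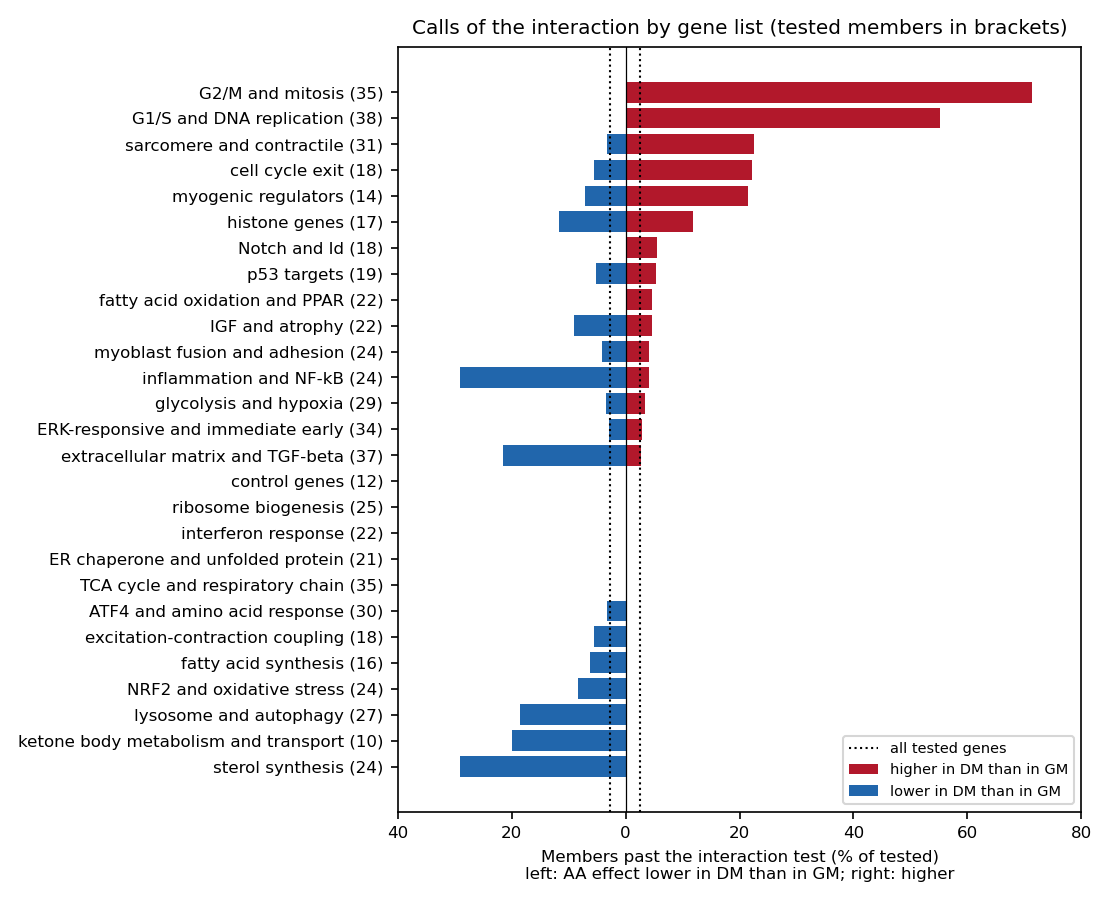
Share of each gene list's tested members past the test of the difference, for lists with at least 10 tested members; bars to the right are members whose AA effect was higher in DM than in GM, bars to the left lower, and dotted lines mark the shares over all tested genes (2.58% and 2.67%). The 2 cell cycle lists stand farthest to the right, and the sterol and inflammation lists farthest to the left.

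The cell cycle held the most uniform difference. Of 73 tested genes of DNA replication and mitosis, 46 had a higher effect of AA in DM than in GM (63.0% against 2.58% of all tested genes) and none a lower one. In GM these genes were lower with AA or did not pass the test, and in DM they were higher or did not pass it: among G1/S genes 13 fell and none rose in GM, while 22 rose and none fell in DM; among G2/M genes the numbers were 7 and none, and 28 and none. Over all tested genes 11% fell in GM and 12.6% rose in DM. All 73 cell cycle genes had a positive difference, from 0.056 to 0.903, where 49.7% of all tested genes did. Both lists were chosen with earlier results of these data known, so these shares describe the lists and are no test of them. In bulk RNA, more dividing cells and more of these transcripts per dividing cell cannot be told apart.

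Promoters of these genes are known for CCAAT boxes, for the cell cycle homology region (CHR, bound by the DREAM complex) and for E2F sites. Promoter sequences, taken from RefSeq (GRCm38.p6) as the 250 bases before the annotated start, are shown for cyclin F, topoisomerase II alpha and Cdk1, which hold several such motifs, and for Mcm5 as the example of an S-phase gene. Capitals mark matches on either strand. The CHR was searched as TTTGAA, the CCAAT box by its 5 letters, and E2F sites as TTTCCCGC, TTTCGCGC, TTTGCCGC or TTTGGCGC; the long run of capitals in Mcm5 is a pair of overlapping E2F matches.
Ccnf (chr17:24251410-24251659, minus strand): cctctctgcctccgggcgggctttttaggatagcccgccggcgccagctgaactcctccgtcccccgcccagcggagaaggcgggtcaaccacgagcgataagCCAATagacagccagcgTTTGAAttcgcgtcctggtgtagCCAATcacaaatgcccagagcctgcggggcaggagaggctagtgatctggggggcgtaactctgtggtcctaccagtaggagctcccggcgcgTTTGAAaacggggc
Top2a (chr11:99024190-99024439, minus strand): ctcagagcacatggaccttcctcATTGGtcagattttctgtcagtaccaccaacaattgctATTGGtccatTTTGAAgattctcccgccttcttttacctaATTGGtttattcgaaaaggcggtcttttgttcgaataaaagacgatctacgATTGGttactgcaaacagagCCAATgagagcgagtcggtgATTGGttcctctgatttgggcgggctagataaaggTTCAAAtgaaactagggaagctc
Cdk1 (chr10:69352913-69353162, minus strand): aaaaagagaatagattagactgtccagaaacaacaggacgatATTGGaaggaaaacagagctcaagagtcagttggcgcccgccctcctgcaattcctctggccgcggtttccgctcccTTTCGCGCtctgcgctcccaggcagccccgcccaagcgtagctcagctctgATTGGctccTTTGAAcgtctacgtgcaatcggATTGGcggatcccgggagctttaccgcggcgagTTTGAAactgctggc
Mcm5 (chr8:75109259-75109508, plus strand): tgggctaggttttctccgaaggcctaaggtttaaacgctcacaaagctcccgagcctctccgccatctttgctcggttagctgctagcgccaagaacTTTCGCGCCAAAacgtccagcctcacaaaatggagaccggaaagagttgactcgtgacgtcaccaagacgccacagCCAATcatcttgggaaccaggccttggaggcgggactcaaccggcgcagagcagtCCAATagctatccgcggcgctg

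The Ccnf promoter held 2 CHR and 2 CCAAT matches, Top2a 2 and 6, Cdk1 2 and 3 with 1 E2F match, and Mcm5 2 CCAAT and 2 E2F matches. Of the 46 genes, 36 had an entry, with 42 promoters. CCAAT stood in 71.4% of those 42 against 35.3% of the promoters of all tested genes and 33.8% of all 32851 promoters in the table. An E2F match stood in 11.9% against 3.23% and 1.86%, and a CHR match in 23.8% against 10.2% and 16%. These matches are a description of letters; no binding was measured.

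Among the G1/S and DNA replication genes, 21 of 38 were past the test, all higher in DM (55.3%, against 2.58% of all tested genes). The median difference over the 38 genes was 0.409. Of the 21, 8 fell in GM and rose in DM, 10 changed in DM and not in GM, and 3 in GM and not in DM. Mcm5, a subunit of the replicative helicase, was at 148, 148 and 142 CPM in the GM-PBS libraries, 129.6, 127 and 123 in GM-AA, 58.6, 61.9 and 60.5 in DM-PBS, and 83.6, 74.7 and 75.4 in DM-AA. The AA libraries lay below all PBS libraries in GM and above them in DM, and the groups did not overlap in either medium. The effects were -0.21 ± 0.049 in GM and 0.37 ± 0.058 in DM, a difference of 0.58 ± 0.076 (adjusted p = 7.81e-06). Its partners Mcm4 and Mcm6 reversed in the same way, with differences of 0.41 ± 0.073 and 0.43 ± 0.073. The GM effect of Mcm6 passed narrowly (adjusted p = 0.0419). Mcm2 and Mcm3 passed the test in DM and not in GM (0.38 ± 0.056 and 0.30 ± 0.052 in DM, -0.13 ± 0.049 and -0.073 ± 0.045 in GM).

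Rrm2, the small subunit of ribonucleotide reductase that makes deoxynucleotides, was at 505, 546 and 528 CPM in the GM-PBS libraries, 513, 489 and 486 in GM-AA, 176, 168 and 168 in DM-PBS, and 250.3, 229 and 236 in DM-AA. Its libraries overlapped between AA and PBS in GM and stood apart in DM, where all 3 AA libraries were higher. The effect was -0.086 ± 0.046 in GM and 0.48 ± 0.050 in DM, with a difference of 0.57 ± 0.067 (adjusted p = 2.36e-06). The large subunit, Rrm1, fell in GM (-0.20 ± 0.050) and rose in DM (0.20 ± 0.052). Ccne1 encodes cyclin E1, the partner of Cdk2 in S-phase entry, and was at 52.7, 56.4 and 60.5 CPM in the GM-PBS libraries, 50.5, 42.3 and 47.7 in GM-AA, 16.6, 16.3 and 17.6 in DM-PBS, and 21, 22.2 and 21.9 in DM-AA. All 3 AA libraries lay below the PBS libraries in GM and above them in DM, and DM-PBS was far below GM-PBS. The difference was 0.64 ± 0.12 for Ccne1 (adjusted p = 0.000939) and 0.90 ± 0.23 for the much less abundant Ccne2 (adjusted p = 0.0153). Both effects of Ccne2 were near the threshold (adjusted p = 0.0355 in GM and 0.0373 in DM).

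Other replication genes moved in the same direction. Fen1, the flap endonuclease that matures Okazaki fragments, rose in DM (0.46 ± 0.055) and had an effect of -0.045 ± 0.047 in GM, but exons on the opposite strand cover 84.2% of it, so its reads may belong in part to other genes. The licensing factors Cdc6 and Cdt1 rose in DM by 0.55 and 0.38 on the log2 scale, with GM effects of -0.14 ± 0.073 and -0.039 ± 0.058 that did not pass. Uhrf1, which recruits the maintenance DNA methyltransferase, and Pole, the catalytic subunit of DNA polymerase epsilon, fell in GM and rose in DM. Pcna, Lig1 and Tk1 showed the reverse balance of evidence: they fell in GM (-0.27 ± 0.064, -0.26 ± 0.078 and -0.23 ± 0.056) and their DM effects did not pass the test (0.13 ± 0.070, 0.20 ± 0.099 and 0.065 ± 0.064). E2f2, an activating E2F, rose in DM by 0.66 on the log2 scale and had an effect of 0.09 ± 0.064 in GM. Rad54l, a recombination repair factor outside the lists, had a difference of 0.82 ± 0.15 (adjusted p = 0.000814), with 9.26, 10.1 and 12.1 CPM with PBS and 15, 15.8 and 17.1 with AA in DM.

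**Figure D3:**
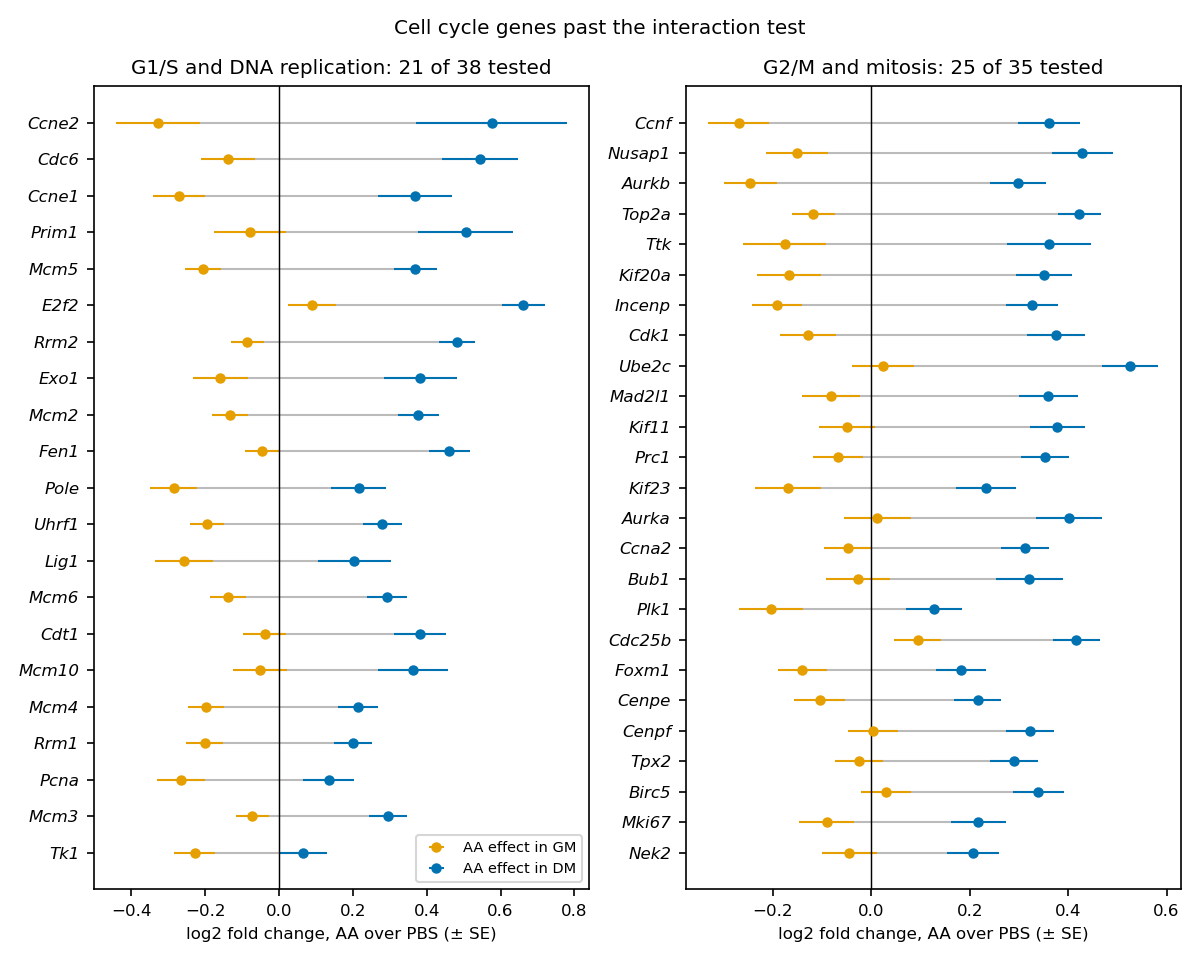
Effect of AA in GM (orange) and in DM (blue), as log2 fold change over PBS ± SE, for the 21 G1/S genes and the 25 G2/M genes past the test of the difference. Each blue point lies to the right of its orange partner; all the blue points lie to the right of 0.

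Among the G2/M and mitosis genes, 25 of 35 were past the test, all higher in DM (71.4%, against 2.58% of all tested genes). The median difference over the 35 genes was 0.326. Here 20 of the 25 changed in DM and not in GM, 4 reversed and 1, Plk1, changed in GM and not in DM. Ccnf, cyclin F, the substrate receptor of a ubiquitin ligase, was at 83.9, 78.4 and 82 CPM in the GM-PBS libraries, 64.1, 68.5 and 70.1 in GM-AA, 65, 62 and 63.7 in DM-PBS, and 91.2, 76.7 and 77.3 in DM-AA. Its AA libraries lay under all PBS libraries in GM and over them in DM. The effects were -0.27 ± 0.062 and 0.36 ± 0.063, a difference of 0.63 ± 0.088 (adjusted p = 1.69e-05).

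Top2a, which untangles chromosomes before mitosis, was at 368, 391 and 386 CPM in the GM-PBS libraries, 348, 353 and 353 in GM-AA, 291, 303 and 293 in DM-PBS, and 397, 388 and 404 in DM-AA. AA and PBS libraries did not overlap in either medium, but the GM effect did not pass the test. The difference was 0.54 ± 0.062 (adjusted p = 1.56e-06). Cdk1, the kinase that drives entry into mitosis, had effects of -0.13 ± 0.056 in GM, which did not pass, and 0.37 ± 0.058 in DM, with a difference of 0.50 ± 0.081 (adjusted p = 0.000119). Aurkb and Incenp, the kinase and the scaffold of the chromosomal passenger complex, both reversed. Aurkb was at 84.9, 85.5 and 85.6 CPM in the GM-PBS libraries, 68.3, 71.9 and 75.7 in GM-AA, 60.3, 56.7 and 59.6 in DM-PBS, and 73.5, 70.8 and 73.1 in DM-AA, and Incenp had effects of -0.19 ± 0.051 and 0.33 ± 0.053. Foxm1, the transcription factor of late cell cycle genes, reversed with small effects (-0.14 ± 0.050 and 0.18 ± 0.051). Its GM effect passed narrowly (adjusted p = 0.042).

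The 3 mitotic genes with the highest DM effects among those past the test, chosen after their values were seen, were Ube2c (0.53 ± 0.057), Nusap1 (0.43 ± 0.063) and Top2a (0.42 ± 0.044). Mki67, the proliferation antigen, was at 862, 888 and 888 CPM in the GM-PBS libraries, 763, 863 and 851 in GM-AA, 866, 862 and 715 in DM-PBS, and 972, 906 and 962 in DM-AA. In DM-PBS, replicate 3 was lower than the other libraries, and without it the difference missed the threshold (adjusted p = 0.0558, against 0.0152 with all libraries). Its effects were -0.091 ± 0.056 in GM and 0.22 ± 0.056 in DM. Leaving out each library in turn left 17 to 23 of the G1/S genes and 22 to 26 of the G2/M genes past the test. DESeq2 called 16 and 24, with no adjusted p for Ccne2.

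**Figure D4:**
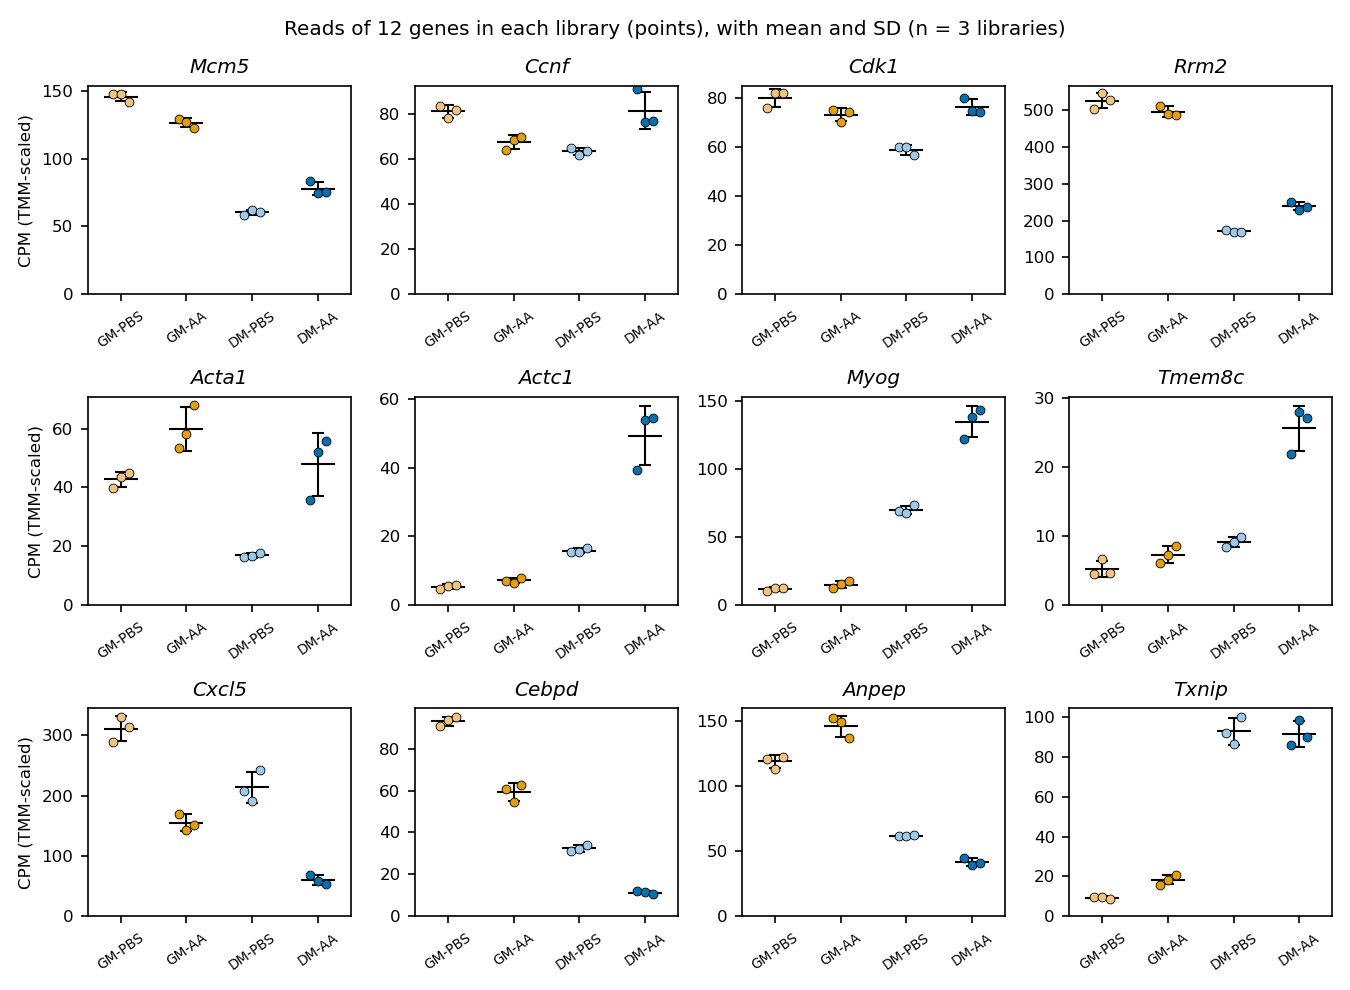
Levels (CPM, TMM-scaled) of 12 genes in each of the 12 libraries, with the mean and SD of each group (n = 3 libraries); each axis starts at 0. Mcm5 and Ccnf go down with AA in GM and up in DM, Acta1 goes up in both media, and Txnip goes up in GM alone and lies far higher in DM with or without AA.

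Genes of cell cycle exit were mixed. In this list, 4 of 18 were higher and 1 was lower (27.8% past the test, against 5.24% of all tested genes). The median difference was 0.145. Gadd45g, a growth arrest and stress gene, fell in GM and rose in DM, at 84.8, 79.4 and 77.1 CPM in the GM-PBS libraries, 72.5, 72.6 and 67 in GM-AA, 55.6, 49.9 and 55.6 in DM-PBS, and 71.3, 79 and 86.2 in DM-AA, with a difference of 0.74 ± 0.092 (adjusted p = 3.64e-06). Its AA and PBS libraries did not overlap in either medium. Ccnd3, the D cyclin that stays on in differentiating muscle, and Rbl1, the pocket protein p107, rose in DM (0.44 ± 0.053 and 0.37 ± 0.069) and did not pass the test in GM (0.057 ± 0.053 and -0.015 ± 0.059). Cdkn1a, the Cdk inhibitor p21, rose in DM by 0.20 on the log2 scale and had -0.056 ± 0.047 in GM. Its difference of 0.25 ± 0.066 (adjusted p = 0.0176) fell short of the threshold in 2 of 22 other fits (those with other settings or without 1 library), without GM-AA replicate 2 and without DM-AA replicate 3 (adjusted p up to 0.0832). Btg1, an antiproliferative gene, was lower (-0.29 ± 0.087, adjusted p = 0.0466). This call was lost with DESeq2, limma-voom, the replicate block or DESeq2's size factors. It was also lost without GM-PBS 1 or 2, GM-AA 1 or 3, DM-PBS 1 or 2, or DM-AA 1 or 3. Ccnd1, cyclin D1, fell in both media (-0.15 ± 0.047 and -0.34 ± 0.050), and its difference of -0.18 ± 0.068 did not pass (adjusted p = 0.127).

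Sign reversals reached beyond these lists. Of the 32 genes that fell in GM and rose in DM, 12 were in the 2 cell cycle lists and 20 were in neither. By known function many of the 20 also act in the cell cycle: Spc24 is part of the kinetochore's Ndc80 complex, Tonsl repairs stalled forks, Kifc1 is a spindle motor, and Clspn, Mms22l, Recql4, Asf1b, Tcf19, Smc2, Espl1, Knstrn and E2f7 were also among them. These names were read off the results and not from a list. Of the 32 genes, 23 had an entry, with 25 promoters. CCAAT stood in 72% of these, CHR in 16% and an E2F match in 16%. Over the promoters of all tested genes the shares were 35.3%, 10.2% and 3.23%. For the genes that rose in GM and fell in DM they were 32.1%, 14.3% and 0% of 28 promoters. The 12 list members are also among the 46 genes above, so the 2 sets overlap.

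Spc24 was at 26.5, 28.4 and 24.8 CPM in the GM-PBS libraries, 20.6, 21.3 and 20.4 in GM-AA, 20.4, 18.5 and 18.8 in DM-PBS, and 25.3, 23 and 25.8 in DM-AA. Tonsl was at 47.6, 46.7 and 44.8 CPM in the GM-PBS libraries, 36.8, 36.2 and 38.7 in GM-AA, 21.6, 24.1 and 23.5 in DM-PBS, and 28.2, 29.9 and 32.7 in DM-AA. For both, the 3 AA libraries were below PBS in GM and above it in DM, with differences of 0.71 ± 0.13 and 0.71 ± 0.11. Kifc1 had effects of -0.29 ± 0.071 and 0.23 ± 0.071, and Pole had -0.28 ± 0.063 and 0.22 ± 0.076, its DM libraries overlapping at the edge. Abhd8, a hydrolase-domain gene that was more abundant in DM, reversed as well (-0.22 ± 0.060 and 0.25 ± 0.053). Slfn9, of the Schlafen family, did so at low levels (9.77, 12.8 and 12.4 CPM with PBS and 15.1, 14.7 and 13.9 with AA in DM). Its DM effect was near the threshold (adjusted p = 0.039), and its difference was lost without DM-PBS replicate 1 (adjusted p = 0.0589).

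Id2, which binds E proteins and so blocks MyoD's partners, had the largest GM fall of the 10 reversals of this kind that the naming rule picks. It was at 86, 87.8 and 78.5 CPM in the GM-PBS libraries, 59.3, 57.7 and 66.9 in GM-AA, 18.5, 20 and 18.2 in DM-PBS, and 21.2, 24.1 and 22.4 in DM-AA. All AA libraries lay below PBS in GM and above it in DM, and the level in DM was far below that in GM. The effects were -0.46 ± 0.063 and 0.26 ± 0.096, a difference of 0.71 ± 0.12 (adjusted p = 0.000122). The DM effect, on which the reversal of Id2 also rests, passed narrowly (adjusted p = 0.045). It was the 1 gene of 18 in the Notch and Id list past the test (5.6%, near the 5.24% of all tested genes). Npr3 (1.57 ± 0.23) and Rgs16 (0.97 ± 0.19) had larger differences but stayed under 5 RPKM; both were picked after their values were seen.

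**Figure D5:**
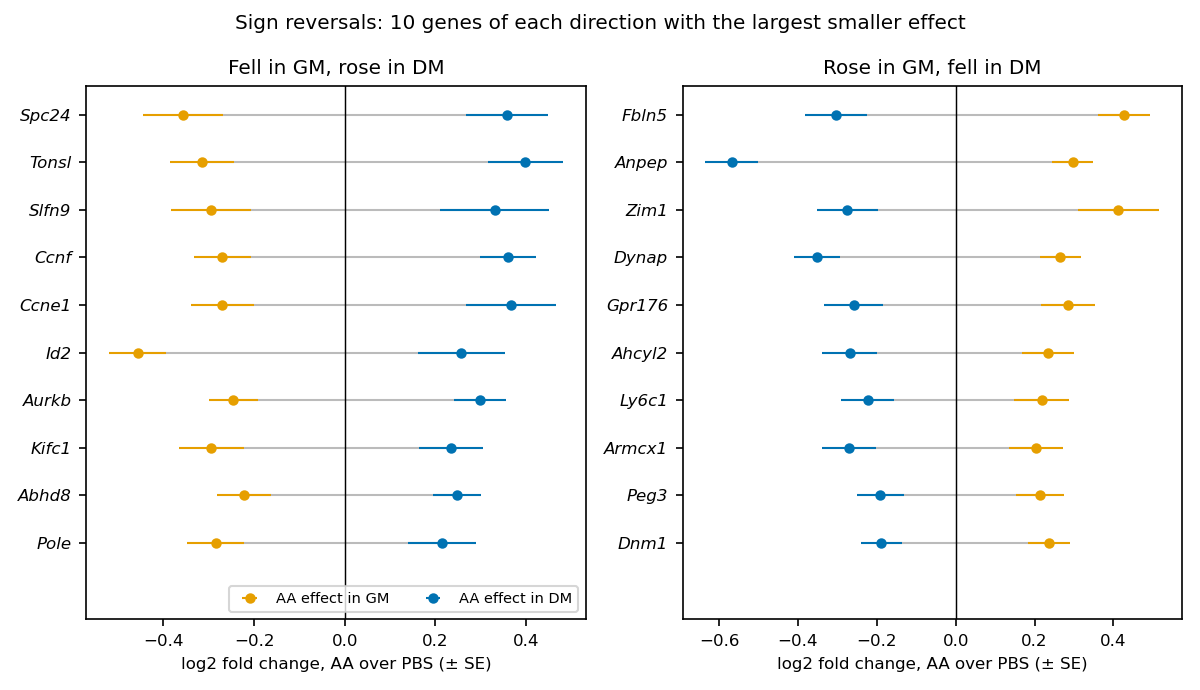
Effect of AA in GM (orange) and in DM (blue), as log2 fold change over PBS ± SE, for 10 genes that fell in GM and rose in DM (left) and 10 that rose in GM and fell in DM (right), chosen for the size of the smaller of their 2 effects. Spc24 and Fbln5 head the panels, and the largest effect shown is that of Anpep in DM (-0.57).

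The 23 genes that rose in GM and fell in DM were of mixed function, and none was in the cell cycle lists. Anpep, aminopeptidase N, was at 121, 113 and 122 CPM in the GM-PBS libraries, 152, 149 and 136 in GM-AA, 61.6, 61.3 and 62.2 in DM-PBS, and 44.8, 39.1 and 40.9 in DM-AA. Its groups did not overlap in either medium, with effects of 0.30 ± 0.052 and -0.57 ± 0.067 and a difference of -0.86 ± 0.085 (adjusted p = 4.10e-08). Dynap, a membrane protein that binds dynactin, was at 262, 248 and 231 CPM in the GM-PBS libraries, 313, 294 and 284 in GM-AA, 137, 138 and 135 in DM-PBS, and 116, 99.8 and 106 in DM-AA. It too had AA libraries above PBS in GM and below it in DM, with a difference of -0.62 ± 0.078. Fbln5, the elastic fibre protein fibulin-5, was at 49.2, 49 and 49.1 CPM in the GM-PBS libraries, 63.5, 66.7 and 68 in GM-AA, 34.9, 35.4 and 40.7 in DM-PBS, and 28.9, 28.1 and 32.7 in DM-AA. All 3 AA libraries exceeded PBS in GM and all 3 were lower in DM, a difference of -0.73 ± 0.10 (adjusted p = 1.69e-05).

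The imprinted zinc finger genes Zim1 and Peg3, which are neighbours, both reversed. Zim1 had effects of 0.41 ± 0.10 and -0.27 ± 0.078, and Peg3 of 0.21 ± 0.061 and -0.19 ± 0.060; the GM libraries of Peg3 overlapped. The orphan receptor Gpr176 (-0.54 ± 0.10), Ahcyl2 (-0.50 ± 0.096), the GPI-anchored Ly6c1 (-0.44 ± 0.097), Armcx1 of the mitochondrial outer membrane (-0.47 ± 0.097) and dynamin 1, Dnm1 (-0.43 ± 0.074), also reversed. Others of these 23 appear below with their pathways (Sc4mol, Elovl6, Ctsd and Plk2). Of all 55 reversals, 7 stayed under 5 RPKM. The number moved with the method: DESeq2 gave 30 reversals, and the fit without the GC and length trend gave 88.

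Muscle genes that changed mostly rose with AA, and in some the rise was larger in DM. Of 31 tested sarcomere and contractile genes, 7 had a higher effect in DM and 1 a lower one. That is 25.8% past the test, against 5.24% of all tested genes. The median difference was 0.392, the median effect 0.420 in GM and 1.056 in DM, and 23 of 31 differences were positive. In GM 12 rose (9.76% of all tested genes did), in DM 24 rose (12.6%), and none fell in either. Leaving out 1 library gave 5 to 8 higher, and DESeq2 gave 4, with no adjusted p for 3 of the 7 (Myh3, Mylpf and Neb). Many of these genes were at a few CPM, where SEs are wide.

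Acta1, skeletal alpha-actin, was at 39.8, 43.7 and 44.8 CPM in the GM-PBS libraries, 53.3, 58.2 and 68.2 in GM-AA, 16.3, 16.5 and 17.8 in DM-PBS, and 35.7, 51.9 and 56 in DM-AA. AA libraries exceeded PBS in both media, and PBS was lower in DM than in GM. The effects were 0.49 ± 0.099 and 1.51 ± 0.12, a difference of 1.02 ± 0.16 (adjusted p = 7.82e-05). Cardiac alpha-actin, Actc1, which skeletal muscle expresses early in differentiation, was at 4.55, 5.63 and 5.90 CPM in the GM-PBS libraries, 7.09, 6.39 and 8.01 in GM-AA, 15.4, 15.4 and 16.7 in DM-PBS, and 39.4, 54 and 54.7 in DM-AA. All AA libraries were higher in both media, but in GM the effect did not pass the test (0.42 ± 0.19 against 1.64 ± 0.11 in DM); the difference was 1.22 ± 0.22 (adjusted p = 0.000582). The actins are near-identical in sequence, so reads may be split between them in ways the sources do not state.

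Both actin promoters are known for CArG boxes, the site of serum response factor, and are shown because both genes differed between the media by at least 2-fold. Capitals mark the CArG box and, in Acta1, the E-box CAGCTG as well.
Acta1 (chr8:123894776-123895025, minus strand): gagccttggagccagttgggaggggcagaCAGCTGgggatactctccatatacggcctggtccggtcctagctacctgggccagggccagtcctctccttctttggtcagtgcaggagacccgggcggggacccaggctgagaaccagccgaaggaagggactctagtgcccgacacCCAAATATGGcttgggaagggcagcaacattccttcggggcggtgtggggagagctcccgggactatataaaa
Actc1 (chr2:114052876-114053125, minus strand): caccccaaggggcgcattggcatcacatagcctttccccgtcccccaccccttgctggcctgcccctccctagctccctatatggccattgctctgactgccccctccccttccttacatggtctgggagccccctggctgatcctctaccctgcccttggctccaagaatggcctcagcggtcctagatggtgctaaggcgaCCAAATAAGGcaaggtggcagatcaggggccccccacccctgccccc
The CArG match lay 73 to 64 bases before the start in Acta1 and 47 to 38 in Actc1. It was found in 2 of the 5 promoters matched to the 7 higher sarcomere genes and in 1.47% of all promoters in the table. The E-box CAGCTG stood in 3 of the 5, against 13% of all promoters. MEF2 sites were searched as well and stood in 0 of the 5, against 2.92% of all promoters.

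Xirp1, an actin-binding protein of developing sarcomeres, rose in both media (0.31 ± 0.10 and 1.22 ± 0.098), with a difference of 0.91 ± 0.14 (adjusted p = 8.73e-05). Myh3, embryonic myosin heavy chain, was at 8.31, 8.45 and 10.3 CPM in the GM-PBS libraries, 10.9, 13.4 and 15.8 in GM-AA, 5.50, 3.70 and 4.27 in DM-PBS, and 10.6, 14.3 and 14.7 in DM-AA. It was scarce throughout, with AA above PBS in each medium and a difference of 0.97 ± 0.23 (adjusted p = 0.0087). Mylpf, the fast regulatory light chain, had a difference of 1.20 ± 0.34 that was lost in 9 fits, among them the one with robust spread (adjusted p up to 0.119). Tpm2, an abundant tropomyosin, was at 319.7, 347 and 297 CPM in the GM-PBS libraries, 288, 308 and 291 in GM-AA, 347, 343 and 359.7 in DM-PBS, and 414, 422 and 431 in DM-AA. It rose in DM (0.27 ± 0.049), with -0.12 ± 0.050 in GM where the libraries overlapped.

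Mylk2, the skeletal myosin light chain kinase, went the other way. It was at 17.2, 19.5 and 17.1 CPM in the GM-PBS libraries, 39.5, 35.3 and 33.1 in GM-AA, 12.7, 10.2 and 11.7 in DM-PBS, and 9.58, 10.4 and 10.5 in DM-AA. AA raised it in GM, with all 3 libraries far above PBS, and the DM groups overlapped. The effects were 1.01 ± 0.093 and -0.19 ± 0.13, a difference of -1.20 ± 0.16 (adjusted p = 8.19e-06). In the excitation-contraction coupling list 1 of 18 genes passed: Jph2, junctophilin, rose by more in GM (0.48 ± 0.057) than in DM (0.18 ± 0.055), a call lost without GM-PBS 3, GM-AA 3, DM-PBS 1 or DM-AA 1 (adjusted p up to 0.0881). That list's median effects were 0.443 in GM and 0.378 in DM. Ckm, muscle creatine kinase, was at 0.493 to 4.16 CPM, and its difference of 0.14 ± 0.57 changed sign when some libraries were left out (adjusted p = 0.948).

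Of 14 myogenic regulators, 3 were higher and 1 lower (28.6%, against 5.24% of all tested genes). Myog, myogenin, the factor that commits myoblasts to differentiation, was at 10.2, 12.5 and 12.6 CPM in the GM-PBS libraries, 12.4, 15.3 and 17.4 in GM-AA, 69.5, 67.6 and 73.6 in DM-PBS, and 122, 139 and 144 in DM-AA. In DM all AA libraries were well above PBS, and in GM, where it is scarce, the groups touched. Its effects were 0.35 ± 0.13 in GM and 0.94 ± 0.066 in DM, with a difference of 0.59 ± 0.15 (adjusted p = 0.0105), which was lost without GM-PBS replicate 3 or GM-AA replicate 1 (adjusted p up to 0.0602). The number of higher regulators was then 1 instead of 3.

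Myod1 was at 227, 232 and 217 CPM in the GM-PBS libraries, 165, 184 and 186 in GM-AA, 165, 163 and 168 in DM-PBS, and 172, 173 and 171 in DM-AA. AA lowered it in GM, where the groups did not overlap, to near its DM level, and the DM effect did not pass the test. The difference was 0.40 ± 0.070 (adjusted p = 0.000341). Myf5, the sister factor of undifferentiated myoblasts, moved in the opposite sense: it rose by more in GM (0.64 ± 0.072) than in DM (0.27 ± 0.068), with a difference of -0.37 ± 0.099 that was lost without 3 of the libraries in turn (GM-PBS 1, GM-AA 3 or DM-AA 1). Mef2a rose in DM (0.48 ± 0.061, difference 0.33 ± 0.094), and this call was lost without 7 of the 12 libraries in turn. Pax7 (-0.049 ± 0.12, adjusted p = 0.896) and Mef2c (-0.39 ± 0.34, adjusted p = 0.634) did not pass.

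In the list of fusion and adhesion genes, 1 of 24 was higher and 1 lower (8.3%, against 5.24% of all tested genes). Tmem8c, which encodes myomaker, the membrane protein that makes myoblasts fuse, was at 4.55, 6.62 and 4.57 CPM in the GM-PBS libraries, 6.08, 7.20 and 8.60 in GM-AA, 8.45, 9.12 and 9.92 in DM-PBS, and 21.9, 27.9 and 27 in DM-AA. DM-AA stood clear above DM-PBS, and the GM groups overlapped. The effects were 0.48 ± 0.18 and 1.49 ± 0.13, a difference of 1.01 ± 0.23 (adjusted p = 0.00449), lost without GM-PBS replicate 2 (adjusted p = 0.0518); DESeq2 gave it no adjusted p. Adam12, a metalloprotease of early myotubes, had the lower effect (-0.38 ± 0.11), lost in 9 fits. In DM, 3 genes outside the lists rose with a large positive difference: Pfn2, the actin-monomer binder profilin 2 (11.7, 11.8 and 12.9 CPM in the GM-PBS libraries, 12.2, 12 and 12.1 in GM-AA, 10.5, 10.4 and 12.2 in DM-PBS, and 20.6, 21.6 and 26.1 in DM-AA), Fndc1, and Ch25h, the cholesterol 25-hydroxylase. Pfn2's GM groups overlapped and its difference was 1.06 ± 0.17, while Ch25h had 1.04 ± 0.16 and Fndc1, which rose in both media, 0.74 ± 0.15. Tgm2, tissue transglutaminase, and Cd24a, a small surface glycoprotein, also rose in both media and by more in DM (0.65 ± 0.14 and 0.63 ± 0.098).

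Among genes of inflammation and NF-kB, 7 of 24 had a lower effect of AA in DM than in GM and 1 a higher one. That is 33.3% past the test, against 5.24% of all tested genes. The median difference was -0.283, and 6 of 24 differences were positive. In GM 12 fell (11% of all tested genes did), in DM 16 fell (13.8%), and none rose. Leaving out 1 library gave 5 to 9 lower genes, and removing the GC and length trend gave 10.

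Cxcl5, a neutrophil chemokine, was at 289.6, 329.9 and 314 CPM in the GM-PBS libraries, 170.2, 142 and 152 in GM-AA, 208, 192 and 242 in DM-PBS, and 68, 58.4 and 53 in DM-AA. AA libraries were below PBS in both media without overlap, with effects of -1.01 ± 0.070 and -1.84 ± 0.080 and a difference of -0.83 ± 0.11 (adjusted p = 5.46e-06). In CPM, however, the drop was about equal in both media, so this difference exists on the scale of folds only. Cxcl12, the ligand of Cxcr4, fell by -0.42 in GM and -0.76 in DM as signed log2 changes. Vcam1, the adhesion molecule, and Tnfaip2 fell in DM (-0.32 ± 0.051 and -0.35 ± 0.046), while in GM their groups overlapped (0.0066 ± 0.051 and 0.026 ± 0.043).

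Saa3, an acute-phase protein, had the lowest difference of the genes above 5 RPKM (-1.58 ± 0.37, adjusted p = 0.00633) at low counts, with 4.78, 4.69 and 6.41 CPM with PBS and 3.56, 1.59 and 1.55 with AA in DM. Nos2, the inducible nitric oxide synthase, was the exception in direction. It was at 53.9, 76.3 and 73.8 CPM in the GM-PBS libraries, 28.7, 31.5 and 28.6 in GM-AA, 8.65, 5.55 and 9.79 in DM-PBS, and 7.24, 6.0 and 7.30 in DM-AA. AA lowered it in GM, and in DM, where it was scarce already, the groups overlapped. The difference of 0.97 ± 0.23 (adjusted p = 0.00741) was lost with robust spread (adjusted p = 0.0788).

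Cebpd, Il1rn and F3, outside the list, also fell in DM. Cebpd, a C/EBP factor of the acute phase, was at 90.9, 93.7 and 95.1 CPM in the GM-PBS libraries, 60.8, 54.5 and 62.5 in GM-AA, 31.1, 31.9 and 34.2 in DM-PBS, and 11.8, 11.3 and 10.7 in DM-AA. It fell in both media without overlap, by more in DM on the log2 scale (-0.87 ± 0.11, adjusted p = 6.80e-06), though not in CPM. Il1rn, the antagonist of the interleukin-1 receptor, fell by -0.41 and -1.27 as signed log2 changes, with a difference of -0.87 ± 0.12 (adjusted p = 1.69e-05). F3, tissue factor, which starts coagulation, was at 15.9, 14.2 and 16.4 CPM in the GM-PBS libraries, 15.1, 17 and 14.4 in GM-AA, 33.4, 33.4 and 36.4 in DM-PBS, and 16, 13.7 and 15.3 in DM-AA. In GM its groups overlapped, and in DM all AA libraries fell to the level seen in GM, a difference of -1.19 ± 0.14 (adjusted p = 2.36e-06). Tpsab1, a mast cell tryptase, rose in GM (17, 16.3 and 18.1 CPM with PBS and 41.1, 39.9 and 37.3 with AA) and lay at 0.987 to 2.14 CPM in DM; its difference of -1.27 ± 0.32 was lost without DM-PBS replicate 1 or 3 (adjusted p up to 0.144).

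In the matrix and TGF-beta list 8 of 37 genes were lower and 1 higher (24.3%, against 5.24% of all tested genes). The list's median difference was -0.028. Thbs1, thrombospondin-1, was at 1121, 1116 and 1080 CPM in the GM-PBS libraries, 971, 1141 and 1112 in GM-AA, 2446, 2396 and 2365 in DM-PBS, and 1698, 1608 and 1490 in DM-AA. It was more abundant in DM, where AA lowered it in all 3 libraries, and in GM the groups overlapped. The difference was -0.55 ± 0.073 (adjusted p = 8.19e-06). Grem1, an antagonist of BMPs, was at 859, 753 and 761 CPM in the GM-PBS libraries, 798, 776 and 761 in GM-AA, 246, 232 and 225 in DM-PBS, and 135, 124 and 127 in DM-AA, with GM groups overlapping and a clear fall in DM (-0.87 ± 0.056). Its difference was -0.84 ± 0.074 (adjusted p = 7.79e-09).

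Ctgf, a target of TGF-beta and YAP, fell in both media and by more in DM on the log2 scale (-0.52 ± 0.052 and -0.90 ± 0.059), but by less in CPM. Postn, periostin, was at 25.6, 29.6 and 33 CPM in the GM-PBS libraries, 45.9, 52.9 and 57 in GM-AA, 40.7, 46.1 and 51.1 in DM-PBS, and 44.9, 51.6 and 54.9 in DM-AA. AA raised it in GM to the level of DM, and in DM the groups overlapped; the difference was -0.68 ± 0.13 (adjusted p = 0.000943). Ogn, osteoglycin, was at 27, 25.7 and 28.4 CPM in the GM-PBS libraries, 45.8, 45.5 and 60.4 in GM-AA, 268, 268 and 295 in DM-PBS, and 248, 274 and 289.8 in DM-AA. AA raised it in GM, where it stayed far below its level in DM, and the DM groups overlapped. Its difference was -0.94 ± 0.11 (adjusted p = 2.61e-06). Anxa8, an annexin, fell in both media and by much more in DM (-0.19 ± 0.068 and -1.22 ± 0.10). Maf, a bZIP factor, was far higher in DM-PBS than in GM-PBS and fell with AA in DM (66.3, 64.5 and 63.2 CPM with PBS and 39.4, 34.2 and 35.2 with AA in DM), while its GM effect did not pass (0.18 ± 0.10), with a difference of -1.01 ± 0.13. Spp1, osteopontin, fell in both media, with a difference of -0.37 ± 0.069, and exons of another gene on its strand cover 18.8% of it.

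Differences in the sterol synthesis list were mostly negative. Of 24 sterol synthesis genes, 7 had a lower effect in DM and none a higher one (29.2%, against 5.24% of all tested genes). Of the 24 differences, 2 were positive. The median effects were -0.148 in GM and -0.345 in DM. The number of lower genes was 3 to 8 when 1 library was left out. It fell by over 1.5 times without GM-PBS 2 or 3, GM-AA 1, DM-PBS 1 or 2, or DM-AA 2 or 3, and DESeq2 gave 3. Acat2, the cytosolic thiolase that makes acetoacetyl-CoA for this pathway, was at 79.5, 79.3 and 74 CPM in the GM-PBS libraries, 72.3, 69.1 and 70.1 in GM-AA, 144, 143 and 133 in DM-PBS, and 100.2, 99 and 94.3 in DM-AA. AA libraries were lower in both media, past the test in DM, with a difference of -0.38 ± 0.076 (adjusted p = 0.00126). Lss, lanosterol synthase, fell in DM (-0.53 ± 0.062, difference -0.44 ± 0.099), and its GM groups overlapped. Sc4mol, the sterol C4-methyl oxidase, reversed: it rose in GM (0.31 ± 0.055) and fell in DM (-0.15 ± 0.052), with a difference of -0.46 ± 0.076 (adjusted p = 0.000179). Tm7sf2, a sterol reductase, had -0.54 ± 0.15, lost in 6 fits.

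In the ketone body list, 2 of 10 genes were lower (20%, against 2.67% of all tested genes). Beside Acat2 this was Aacs, acetoacetyl-CoA synthetase, which activates acetoacetate in the cytosol. It was at 79.9, 70.8 and 76.3 CPM in the GM-PBS libraries, 65.8, 66.7 and 72.5 in GM-AA, 121, 115 and 119 in DM-PBS, and 84.7, 90 and 89.6 in DM-AA. AA lowered it in DM without overlap, and the GM groups touched; the difference of -0.28 ± 0.080 (adjusted p = 0.0321) was lost in 8 fits. Oxct1, the mitochondrial transferase that starts ketone oxidation, overlapped between AA and PBS in both media (-0.21 ± 0.071, adjusted p = 0.0823). The transporter Slc16a1 had a difference of -0.17 ± 0.064 that did not pass either.

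Elovl6, the elongase of long-chain fatty acids, was the 1 gene of 16 past the test in the fatty acid synthesis list. That share is 6.2%, near the 5.24% of all tested genes. Elovl6 reversed (0.18 ± 0.053 and -0.18 ± 0.049). Angptl4, an inhibitor of lipoprotein lipase and a PPAR target, was the 1 gene of 22 in the fatty acid oxidation list (4.5%). It fell in GM (103, 100 and 104 CPM with PBS and 77.1, 68.7 and 67 with AA) and overlapped in DM, a difference of 0.58 ± 0.096 (adjusted p = 0.000157). Lpl itself had -0.51 ± 0.15, lost in 12 fits.

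Txnip, the arrestin-like protein that restrains glucose uptake, was at 9.45, 9.68 and 8.42 CPM in the GM-PBS libraries, 15.9, 18.2 and 20.5 in GM-AA, 92, 86.8 and 100.1 in DM-PBS, and 86.1, 98.6 and 90 in DM-AA. AA raised it in GM in all 3 libraries, and in DM, where it was far higher, the groups overlapped. The effects were 0.98 ± 0.12 and -0.022 ± 0.063, a difference of -1.005 ± 0.14 (adjusted p = 1.46e-05). Its relative Arrdc4 had too few reads to follow (1.03 ± 0.70). The Txnip promoter is shown because it is the textbook target of the glucose-sensing factors that bind carbohydrate response elements. Capitals mark the match to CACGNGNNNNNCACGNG, searched on both strands, 85 to 69 bases before the start.
Txnip (chr3:96557707-96557956, plus strand): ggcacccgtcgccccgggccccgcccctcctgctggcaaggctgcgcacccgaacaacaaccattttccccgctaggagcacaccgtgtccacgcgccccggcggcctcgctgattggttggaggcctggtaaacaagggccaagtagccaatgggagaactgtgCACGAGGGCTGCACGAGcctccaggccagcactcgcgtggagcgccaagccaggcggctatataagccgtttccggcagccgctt
That motif stood in 15 of 32851 promoters (0.0457%).

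Lysosome and autophagy genes were lower in 5 of 27 (18.5%, against 2.67% of all tested genes), with none higher. Of the 27 differences, 2 were positive. Without DM-PBS replicate 2 the number of lower genes was 3. Ctsd, cathepsin D, reversed, at 919.8, 882 and 859 CPM in the GM-PBS libraries, 1011, 1006 and 933 in GM-AA, 643, 637 and 682 in DM-PBS, and 590.3, 578 and 585 in DM-AA, though exons of another gene on its strand cover 34.4% of it. Map1lc3b, the autophagosome protein LC3B, fell in DM (-0.25 ± 0.049). Gabarapl1, of the same family as LC3B, fell in both media, with a difference of -0.25 ± 0.068 lost without 3 of the libraries in turn (DM-PBS 2, DM-PBS 3 or DM-AA 2).

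Among p53 targets 1 of 19 differences was positive, that of Cdkn1a, and it was also the 1 higher gene past the test. The share past the test was 10.5% for p53 targets, 8.3% for NRF2, 6.9% for glycolysis and hypoxia and 3.3% for ATF4, against 5.24% of all tested genes. Among p53 targets 1 lower gene passed: Plk2, at 103, 109.6 and 108 CPM in the GM-PBS libraries, 113, 123 and 126 in GM-AA, 143, 153 and 151 in DM-PBS, and 117, 122 and 119.9 in DM-AA, reversed from a rise in GM to a fall in DM (-0.49 ± 0.072, adjusted p = 3.25e-05). In the NRF2 list 2 of 24 were lower: Gclm, the modifier subunit of glutamate-cysteine ligase, at 24.5, 26 and 26 CPM in the GM-PBS libraries, 29.6, 24.1 and 27.9 in GM-AA, 26.8, 25.1 and 23.5 in DM-PBS, and 16.1, 18.1 and 17.8 in DM-AA, with a difference of -0.63 ± 0.13 (adjusted p = 0.00211), and Nfe2l2, the gene of NRF2 itself (-0.24 ± 0.067), lost without 5 libraries in turn. In the glycolysis and hypoxia list Egln3, a prolyl hydroxylase, rose in DM (0.29 ± 0.051, difference 0.40 ± 0.070), and Ndrg1 was lower (-0.34 ± 0.10), lost in 12 fits. Slc7a5, the large neutral amino acid transporter, was the 1 gene of 30 in the ATF4 list (-0.30 ± 0.090), lost in 11 fits.

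IGF binding proteins differed among themselves. Igfbp5 rose in both media and by more in GM on the log2 scale (0.57 ± 0.046 and 0.22 ± 0.046), while in CPM it rose slightly more in DM. Igfbp4 fell in both and by more in DM (-0.25 ± 0.078 and -0.76 ± 0.060). Igfbp3 had a positive difference at low levels (0.86 ± 0.25), lost in 8 fits. In all, 1 of 22 genes of the IGF and atrophy list was higher and 2 were lower (13.6%, against 5.24% of all tested genes).

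Histone genes gave 2 higher and 2 lower of 17 (23.5%, against 5.24% of all tested genes). The linker histones Hist1h1c (-0.50 ± 0.095) and H1f0 (-0.27 ± 0.068) were lower; without DM-PBS replicate 2 or DM-AA replicate 3, H1f0 missed the threshold (adjusted p up to 0.0615) and the number was 1. Hist2h4, at 0.353 to 1.84 CPM, and Hist1h2af were higher (2.17 ± 0.60 and 1.30 ± 0.37) with calls lost in 4 and 11 fits, and DESeq2 gave Hist2h4 no adjusted p. Hist1h2af spread from 17.8 to 58.3 CPM within DM-PBS, so its libraries differ among themselves as much as between groups. Many members of this family, Hist2h4 and Hist1h2af among them, have near-identical relatives. PolyA selection, which most such transcripts largely escape, is not stated.

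Of 34 tested ERK-responsive and immediate early genes, 23 fell with AA in GM (11% of all tested genes did) and 21 in DM (13.8%). In GM 1 rose, the stress-induced factor Atf3 (0.38 ± 0.12), and in DM none did. Few differences were past the test: 1 was higher and 1 lower in the difference (5.9%, near the 5.24% of all genes; median difference 0.005). Egr1, an immediate early transcription factor, was at 270, 300 and 288 CPM in the GM-PBS libraries, 154, 159 and 163 in GM-AA, 476, 491 and 437 in DM-PBS, and 321, 316 and 293 in DM-AA. It fell in both media without overlap, with effects of -0.85 ± 0.053 and -0.60 ± 0.050. The difference of 0.25 ± 0.073 was lost without 8 of the libraries in turn, and in CPM Egr1 fell by more in DM. Dusp4, a phosphatase that restrains ERK, was the lower gene: it fell in DM (-0.58 ± 0.057) and not past the test in GM (-0.085 ± 0.051), a difference of -0.49 ± 0.077 (adjusted p = 7.94e-05). Myc fell in both media (-0.77 ± 0.061 and -0.54 ± 0.070), and its difference did not pass (0.23 ± 0.093, adjusted p = 0.18).

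In 5 further lists no gene passed the test in the fit to all libraries by edgeR, and none by DESeq2 or limma-voom. At an unadjusted p under 0.05 there were 3 of 35 in the TCA cycle and respiratory chain list, 5 of 21 in the endoplasmic reticulum chaperone list, 0 of 22 in the interferon list, 5 of 25 in the ribosome biogenesis list and 0 of 12 among the control genes, against 17.2% of all tested genes. Of the other fits, 1 chaperone gene was higher in both without the GC and length trend, and 1 ribosome biogenesis gene and 1 control gene were higher without GM-AA replicate 1. The median SE of a difference was 0.116. Over all genes past the test the smallest difference was 0.203 and the median size 0.398. Differences well above the SE could therefore also be missed in these lists.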

How the data were processed

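Messenger RNA of C2C12 myoblasts was sequenced in 12 libraries, 3 per group, after 12 h of AA or PBS, per the labels. The submitters' processing notes name BWA 0.5.9-r16 and the build mm9. How reads were counted, whether strand was used and which annotation served: not given in the sources used here. For 23446 genes the deposited file gives read counts, RPKM and gene length, per the file headers. Tests used the deposited counts. The authors' RPKM values only set the lowest level for naming genes. The deposited gene lengths (union of all possible exons, in bases) entered only the alternative that removes trends with GC content and length.

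Genes were kept by filterByExpr by group (99.9% of counts) and scaled by TMM. They were fitted with edgeR 4.0.16 (glmQLFit, glmQLFTest, two-sided, R 4.3.3) as 4 group means with a shared spread (8 residual degrees of freedom). Variation between libraries beyond counting noise, which may be technical in part or in whole, was 4.08% as a coefficient of variation. The contrast was (DM-AA minus DM-PBS) minus (GM-AA minus GM-PBS), adjusted by Benjamini and Hochberg over 12230 genes at a 5% false discovery rate. The SE is the absolute log2 fold change divided by the square root of F. The script was tested on simulated data. Libraries of a group differed by more than counting noise (chi-square per degree of freedom 1.45 to 2.9), so none was merged. DESeq2 1.42.0 and limma 3.58.1 (voom) served as alternatives, with other scalings, filters, spreads, a replicate block and each library left out. Overlaps between exons and GC content were computed from GENCODE M21, which matched 23090 genes by name (98.5%), and promoters from RefSeq on GRCm38.p6.

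A sign reversal is a gene past the test in both media with opposite signs and past the test of the difference. The members and the 34 lists were chosen with earlier results of these data known; lists are described by counts and medians and were given no set test. Named genes are the 12 highest and 12 lowest differences above 5 RPKM, 10 reversals per direction with the largest smaller effect, 4 same-sign genes per direction, up to 4 genes per list with the smallest p, and a panel of Myod1, Myog, Mef2c, Pax7, Tmem8c, Myh3, Ckm, Ccnd1, Cdkn1a, Mki67, Egr1, Myc and Oxct1; predicted, Sprr2, histone and ribosomal protein genes were passed over in the first 3 parts. A gene of the lysosome list that the rule picks is not reported here. Other genes named with values, such as further cell cycle members and Pcna, were chosen after their values were seen, as examples of their lists.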

Additional observations from a re-analysis of the deposited data

Results flagged for a closer look

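Each gene past the test of the difference had an effect of AA that differed between the media by that test, 641 genes in all; 32 of them fell in GM and rose in DM and 23 rose in GM and fell in DM. The named genes that differed by at least 2-fold are given here by the difference on the log2 scale (DM minus GM), and the values of the other named genes stand in the report. Among genes of muscle and the cytoskeleton these were Actc1 (1.22), Mylpf (1.20), Pfn2 (1.06), Acta1 (1.02), Tmem8c (1.01) and, in the other direction, Mylk2 (-1.20). Ch25h (1.04) was also higher in DM. Saa3 (-1.58), Tpsab1 (-1.27), F3 (-1.19), Anxa8 (-1.03), Maf (-1.01) and Txnip (-1.005) were lower. The histone genes Hist2h4 (2.17) and Hist1h2af (1.30) had wide SEs and low or scattered reads. No group held more than 3 libraries, so single libraries were not tested for standing apart.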

How the results depend on the processing

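The rough size of the count of genes past the test held under other scalings, filters and fits: 646 genes with DESeq2's size factors, 645 without TMM, 476 with DESeq2, 643 with limma-voom, 744 without a filter, 645 with a stricter one, 688 with robust spread and 829 without the GC and length trend, against 641. Higher and lower genes were near even. Lower genes were more numerous in some fits (315 higher and 326 lower in the main fit, 318 and 325 with limma-voom). In others higher genes were (329 and 317 with DESeq2's size factors, 242 and 234 with DESeq2). In these data 317 of the 641 genes were past the test in all 22 other fits. At a 1% false discovery rate the numbers were 339 genes (169 higher, 170 lower) and 22 reversals (13 that fell in GM and rose in DM, 9 of the other kind). Reversals were the less stable count: DESeq2 gave 30 (16 and 14), removal of the GC and length trend 88, of which 58 fell in GM and rose in DM, and the trend removal with the replicate block 85, of which 55 did. The cause was not tested. Of the 55 reversals, 15 were found in all 22 fits. Leaving out each library in turn gave 456 to 645 genes (232 to 309 higher, 224 to 341 lower) and 43 to 53 reversals (25 to 34 and 17 to 22).

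With the replicate number as a block there were 590 genes (294 higher, 296 lower) and 52 reversals (29 and 23). The labels do not say whether a replicate number marks a shared culture or day. Deviations of same-numbered libraries correlated at -0.0676 to 0.0823 (18 pairs) and those of other libraries at -0.0763 to 0.0816. Of the 12 libraries, 3 correlated best with their own number. No pairing by number is visible in these values, but a shared culture or day of weak effect would not show in them. On the scale of CPM, 12 of the 641 differences have the opposite sign (629 keep it); Cxcl5, Cebpd, Ctgf, Igfbp5, Egr1 and Ndrg1 are the named ones.

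Of 97 named genes past the test, 24 lost it in at least 1 of the fits. Neither reversed gene was past the test: Pax7 (-0.12 to 0.0094 over the libraries left out, positive without DM-AA replicate 1) and Ckm (0.49 at most, -0.042 without GM-PBS replicate 3, -0.14 without GM-AA replicate 1, -0.21 without DM-PBS replicate 2 and -0.40 without DM-AA replicate 2) changed sign. DESeq2 gave no adjusted p for 8 named genes (Ckm, Hist2h4, Igfbp3, Mef2c, Myh3, Mylpf, Saa3 and Tmem8c), 6 of them past the test in edgeR; they are not counted as lost there, while list counts by DESeq2 leave them out. Of 42 list counts, 30 moved by over 1.5 times in some fit, mostly counts of 1 or 2 genes. Among scalings the median difference of all genes moved by 0.0027 at most. With 3 libraries per group, a median SE of 0.116 limits what could be detected, and low genes have wider SEs.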
